A study of Mus musculus with 4 samples.

Results

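Interleukin-6 (IL-6) family signalling was followed through 10 genes among the 52636 listed in each library: the ligands Il6 and Lif, the receptor chains Il6ra, Il6st and Osmr, the transducer Stat3, its feedback inhibitor Socs3, and the responders Cebpb, Cebpd and Lrg1. They were selected by gene symbol, with earlier results on age in these same libraries known. Their differences between ages are therefore given as descriptions, without a test.

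The libraries came from mouse kidney glomeruli, the capillary tufts that filter blood. There were 2 young and 2 aged libraries, all without treatment. Mice were perfused with magnetic beads, glomeruli were held on a magnet and dissociated with enzymes, and cells were profiled in droplets with unique molecular identifiers (UMIs). Age in months, sex, strain and the number of mice behind a library are not given in the sources used here, so spread between libraries may be partly technical.

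As background, IL-6 binds its own receptor chain Il6ra, and the pair then engages gp130, the product of Il6st, which passes the signal through JAK kinases to Stat3. Lif and oncostatin M use gp130 with other partner chains, oncostatin M with the chain encoded by Osmr. Cells without Il6ra can still answer IL-6 through soluble receptor, and Socs3 closes the loop by blocking gp130. In the glomerulus, podocytes and endothelial cells face each other across the filter, mesangial cells hold the capillaries together, and parietal epithelial cells line the capsule.

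The libraries held between 18457791 and 42046542 UMIs in 5532 to 10621 barcodes, and 37 to 74 barcodes of each were also found in another library. Young replicate 2 stood apart: 62.8% of its kept cells were left unnamed, against 4.97% in young replicate 1 and 3.97% and 4.40% in the aged libraries, and its median depth was 1258 UMIs per cell against 2715 to 3730 in the others. Podocyte, endothelial, mesangial and parietal epithelial cells each had at least 30 cells in every library. Podocyte-marked cells numbered 1766, 582, 988 and 656 in young replicates 1 and 2, then aged replicates 1 and 2, an order kept for every run of 4 values below. Endothelial cells numbered 2397, 1363, 5875 and 4203, mesangial cells 275, 181, 659 and 519, and parietal epithelial cells 30, 112, 47 and 46.

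Upstream sequences are shown first because Stat3, NF-kB and C/EBP factors act on genes through short sites in DNA. Windows of 250 bases before the RefSeq start (GRCm38.p6) were available for 9 members, all but Cebpd. They were searched on both strands for the STAT motif TTCNNNGAA, the AP-1 motif TGAGTCA, the TATA box TATAAA, and the NF-kB and C/EBP motifs. The 3 windows with a match are printed 5′ to 3′ on the gene's strand, without annotated exon bases, and capitals mark the matches.
Il6, chr5:30012864-30013113, plus strand: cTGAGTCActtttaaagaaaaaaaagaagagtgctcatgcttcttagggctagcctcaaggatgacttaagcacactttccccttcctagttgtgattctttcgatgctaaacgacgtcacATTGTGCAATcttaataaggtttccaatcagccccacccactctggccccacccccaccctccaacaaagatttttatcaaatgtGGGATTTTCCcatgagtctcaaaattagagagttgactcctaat
Lif, chr11:4257318-4257556, plus strand: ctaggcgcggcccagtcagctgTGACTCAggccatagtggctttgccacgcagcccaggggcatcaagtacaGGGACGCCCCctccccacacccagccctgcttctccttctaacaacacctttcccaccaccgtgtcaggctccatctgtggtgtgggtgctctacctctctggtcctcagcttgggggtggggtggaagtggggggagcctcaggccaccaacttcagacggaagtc
Socs3, chr11:117969452-117969616, minus strand: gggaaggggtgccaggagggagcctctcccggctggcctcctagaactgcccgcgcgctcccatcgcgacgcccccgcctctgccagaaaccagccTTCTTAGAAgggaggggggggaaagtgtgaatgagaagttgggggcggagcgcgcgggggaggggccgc
The Il6 window held an NF-kB match at -44 to -35 from the start, a C/EBP match at -129 to -120 and an AP-1 match at -249 to -243. The Lif window held an NF-kB match at -178 to -169 and an AP-1 match at -228 to -222. The AP-1 match is printed as TGACTCA, since the motif TGAGTCA lies on the other strand. The Socs3 window held the only STAT match of the members, at -154 to -146. Among 32851 RefSeq windows of this length, 7.02% held a STAT match, 7.251% an NF-kB match, 4.463% an AP-1 match and 0.578% a C/EBP match. These are letter matches, and a window without one says nothing about the factor.

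Il6 (chromosome 5, 30013114 to 30019981, GRCm38, plus strand) was an endothelial and mesangial transcript in these libraries, and its level was higher with age in both. Over all kept cells, whatever their name, it stood at 24.3 and 24.7 CPM (UMIs of the gene scaled to a common total) in the young and at 88.1 and 101 CPM in the aged libraries. Endothelial cells held 36.4% and 26.5% of the Il6 UMIs of the young libraries and 68.2% and 68.1% of those of the aged ones. Mesangial cells held 35.8%, 18.25%, 20.1% and 21.8%, and unnamed cells 25.1%, 52.5%, 8.40% and 8.81%, so that in young replicate 2 most Il6 UMIs lay in unnamed cells. Podocytes held 1, 0, 9 and 4 Il6 UMIs in all, and the pooled aged level was 13.5 times the young one with a 95% counting interval of 2.03 to 574.

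Within the endothelial class Il6 was at 27.4 and 24.96 CPM in the young and at 139 and 169 CPM in the aged libraries after TMM scaling, which is used for the 4 glomerular classes from here on. Both aged libraries lay far above both young ones. The log2 fold change was 2.55 ± 0.16 (SE, n = 2 against 2). In mesangial cells the levels were 83.3 and 60.8 CPM in young and 139 and 146 CPM in aged libraries, a log2 fold change of 0.96 ± 0.18. In the young libraries both mesangial levels lay above both endothelial ones, whereas in the aged libraries the ranges of the 2 classes overlapped.

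**Figure D1:**
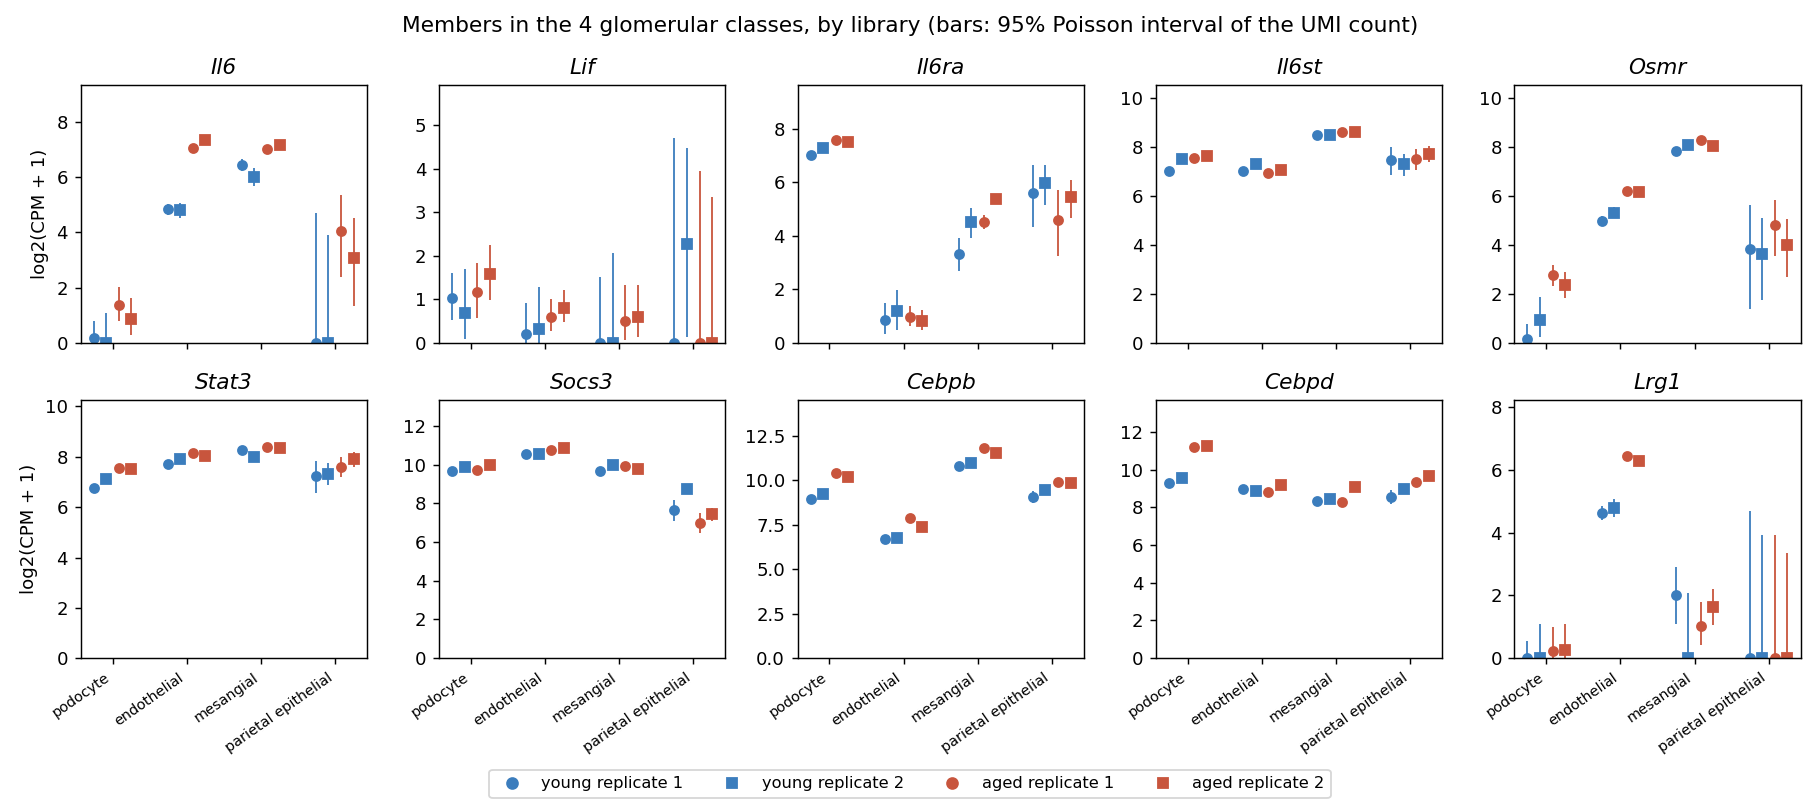
Level of each gene, as log2(CPM + 1) of the summed UMIs without TMM scaling, in the 4 glomerular classes (x axis) and the 4 libraries (colour and symbol); bars are 95% Poisson intervals of the UMI count. Endothelial Il6 and Lrg1 and podocyte Cebpd show aged libraries clear of young ones, while Lif lies near 0.

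The endothelial class is made of several clusters whose shares differ between libraries, and Il6 was therefore also read inside clusters made without the members and the gene lists used here. Il6 was higher in both aged than in both young libraries in 7 of 7 clusters in which it passed the count filter. The filter can be passed through the aged libraries alone, and a cluster low in both groups cannot enter. This count is therefore a description, and in cluster 22 Il6 did not pass. The log2 fold changes ran from 1.30 ± 0.29 in cluster 6 to 4.60 ± 0.64 in cluster 4. In cluster 6 young replicate 2 reached 132 CPM against 154 CPM in aged replicate 1, so that the groups came close there. In cluster 4 young replicate 1 had no Il6 UMI, and the size of that fold change depends on the offset of the fit.

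The share of endothelial cells with an Il6 UMI was higher in the aged libraries too. With every cell thinned to 1000 UMIs, 2.07% and 1.90% of young and 8.61% and 10.5% of aged endothelial cells held one. The means were 1.98% ± 0.12 in young and 9.54% ± 1.32 in aged libraries (SD, n = 2), 7.55 percentage points apart, and the unthinned shares were 4.46%, 4.77%, 16.3% and 22.5%. Podocytes, which were deeper (median 4197 to 7686 UMIs against 2313 to 3215), held one in 0.0568%, 0%, 0.101% and 0% of thinned cells. The endothelial shares lay above that background in each library. Cells with 5 or more Il6 UMIs carried 23.6% and 15.1% of the endothelial Il6 UMIs in young and 29.3% and 45.5% in aged libraries, and the richest cell held 18 UMIs.

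**Figure D2:**
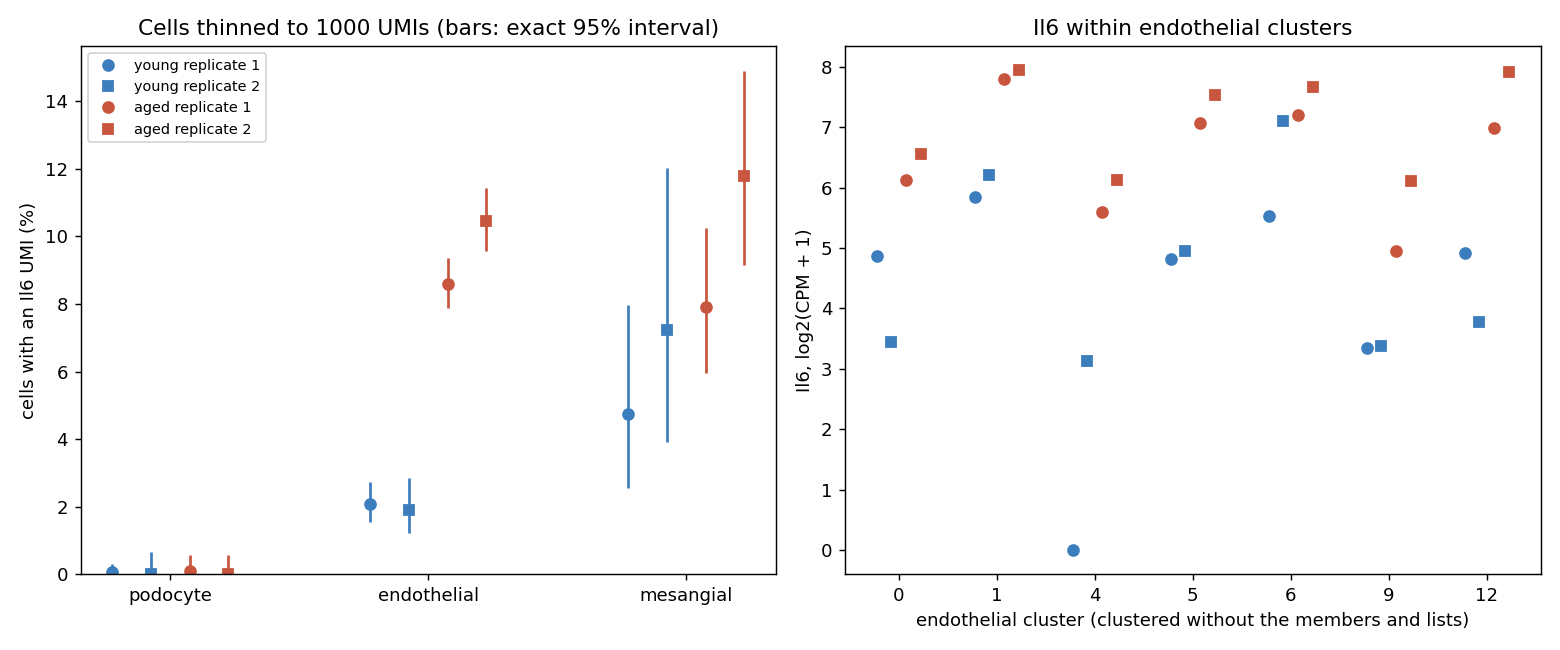
Left, share of cells with an Il6 UMI (y axis, percent) after thinning to 1000 UMIs, by class and library, with exact 95% binomial intervals; right, Il6 as log2(CPM + 1) in 7 endothelial clusters (x axis, cluster number). Aged endothelial libraries sit at 8.61% and 10.5% against 2.07% and 1.90%, and aged points lie above young points in each cluster shown. Only clusters in which Il6 passed the count filter are shown.

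Neutrophils were few but had the highest Il6 level of the 11 classes in the pooled aged libraries, 434 CPM (95% counting interval 331 to 558) against 147 CPM in endothelial cells, both before scaling. The aged libraries stood at 521 and 270.1 CPM, from 47 and 13 UMIs in 8 of 61 and 4 of 22 neutrophils. In young replicate 2 a single cell of 5 held all 7 UMIs, and young replicate 1 had no neutrophil. Smooth muscle and renin cells, related to mesangial cells, stood at 50.8, 8.12, 71.9 and 99.2 CPM before scaling, from 12, 2, 15 and 17 UMIs. Macrophages held 0, 0, 4 and 4 Il6 UMIs, in 3, 12, 569 and 503 cells.

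Lif (chromosome 11, 4257557 to 4272514, plus strand), the leukaemia inhibitory factor gene, was scarce, with 14, 11, 83 and 93 UMIs in all kept cells. Of the aged UMIs, 68.7% and 66.7% lay in tubule cells carried along with the glomeruli, in 11 of 84 and 4 of 19 cells. The tubule level was 63.2 CPM from 4 UMIs in the 3 cells of young replicate 1, and 0 in young replicate 2. It was 63.9 and 227 CPM in the aged libraries, so young replicate 1 and aged replicate 1 were nearly level. This location rests on a choice made after Lif had been seen: cells with parietal epithelial markers were first removed from the tubule class, and under that first rule the aged tubule level was 8.70 CPM against 102 CPM. No glomerular class had enough Lif to pass the count filter.

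Il6ra (chromosome 3, 89864059 to 89913196, minus strand), the IL-6 binding chain, was at 131 and 149 CPM in young and 190 and 188 CPM in aged podocytes, without overlap and with a log2 fold change of 0.44 ± 0.13. In endothelial cells Il6ra was at 0.792, 1.27, 0.957 and 0.759 CPM before scaling, from 37 UMIs in all. At 1000 UMIs a cell, 11.9% to 16.4% of podocytes and 0.0422% to 0.0956% of endothelial cells held an Il6ra UMI, and 38.8% to 64.8% and 0.209% to 0.367% did unthinned. Monocyte and dendritic cells were at 164 CPM and 112 CPM in the pooled young and aged libraries.

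Mesangial Il6ra was at 8.77 and 20.8 CPM in young and 23.5 and 40.9 CPM in aged libraries, a log2 fold change of 1.25 ± 0.37 with little space between the groups. In parietal epithelial cells the order was opposite, 53.1 and 66.9 CPM in young and 25.8 and 47.6 CPM in aged libraries, with a log2 fold change of -0.67 ± 0.45. These values rest on 23 young and 23 aged UMIs. Podocyte markers in the parietal epithelial sums had the same order of libraries, at 1819, 3721, 822 and 1712 CPM, and their part was not tested.

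Il6st (chromosome 13, 112464070 to 112510086, plus strand), which encodes the shared chain gp130, was present in all 4 glomerular classes with small differences by age. Endothelial levels were 129, 147, 129 and 138 CPM and overlapped, with a log2 fold change of -0.05 ± 0.14. Mesangial cells had the highest levels, 354, 343, 423 and 403 CPM. In podocytes the values were 131, 174, 191 and 205 CPM, a log2 fold change of 0.39 ± 0.14.

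Osmr (chromosome 15, 6813577 to 6874969, minus strand), the oncostatin M chain, was highest in mesangial cells at 225, 262, 337 and 268 CPM, where it differed by 0.31 ± 0.17 on the log2 scale. In endothelial cells it was at 30.7 and 36.3 CPM in young and 77.1 and 74.8 CPM in aged libraries, without overlap, a log2 fold change of 1.19 ± 0.15. Inside the endothelial clusters used for Il6, Osmr differed by 0.52 ± 0.23 in cluster 0, where ages overlapped, and by up to 1.88 ± 0.25 in cluster 9. In podocytes it rested on 4 young and 54 aged UMIs, a pooled ratio of 14.02 with a 95% counting interval of 5.17 to 53.3. The podocyte log2 fold change was 3.74 ± 0.61, and 0.41 with mixed cells kept in the class. It was 2.51 without young replicate 1 and 5.11 without young replicate 2.

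**Figure D3:**
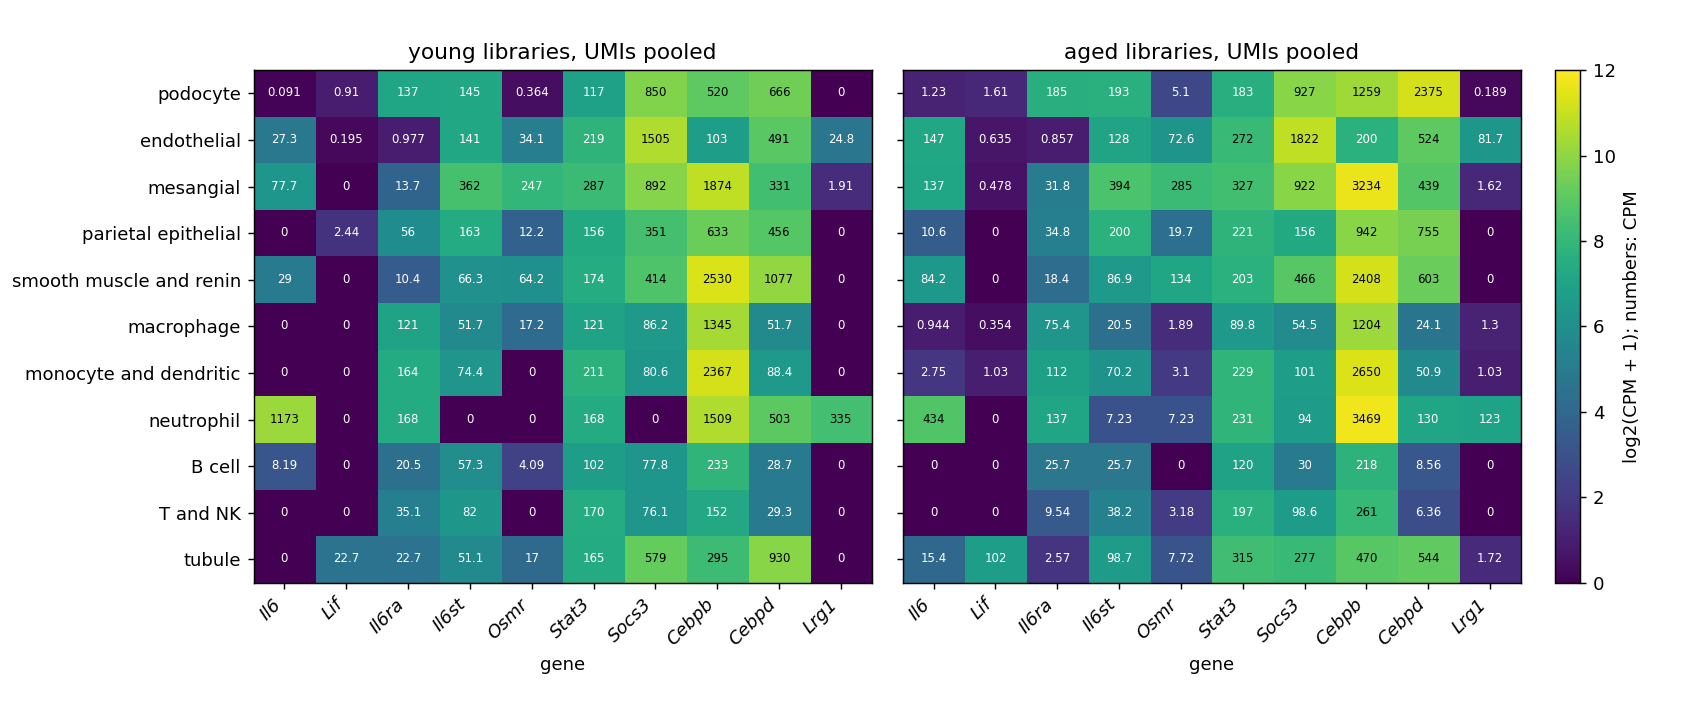
Pooled CPM of each gene (columns) in the 11 marker-defined classes (rows), young libraries left and aged libraries right, coloured by log2(CPM + 1) and printed in each cell. Il6 and Lrg1 are highest in the neutrophil row (434 and 123 CPM in aged libraries, from 83 cells; young neutrophils are 5 cells) and next in the mesangial or endothelial row, and Il6ra is high in the podocyte and myeloid rows.

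Stat3 (chromosome 11, 100885098 to 100939540, minus strand), the transcription factor that gp130 activates, was at 109 and 134 CPM in young and 188 and 187 CPM in aged podocytes, a log2 fold change of 0.64 ± 0.13 without overlap. Endothelial values were 206, 220, 299 and 270 CPM, and mesangial values 299, 241, 357 and 330 CPM. Aged libraries lay above young ones in these classes too, with log2 fold changes of 0.42 ± 0.15 and 0.34 ± 0.16. Inside the endothelial clusters used for Il6, the Stat3 fold change ran from -0.12 ± 0.16 in cluster 0 to 0.56 ± 0.17 in cluster 5. It was -0.53 ± 0.28 in cluster 22, where Il6 did not pass the count filter.

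Socs3 (chromosome 11, 117966079 to 117970047, minus strand) is induced by Stat3 and shuts gp130 signalling off. It was highest in endothelial cells, at 1483 and 1413 CPM in young and 1840 and 1973 CPM in aged libraries, a log2 fold change of 0.40 ± 0.17 without overlap. Inside the endothelial clusters used for Il6, the Socs3 fold change ran from 0.09 ± 0.17 in cluster 1 to 0.75 ± 0.19 in cluster 12. Young and aged values overlapped in clusters 1 and 4, and also in cluster 22, where Il6 did not pass the count filter. Podocyte values of 818, 902, 846 and 1067 CPM and mesangial values of 792, 981, 1032 and 909 CPM overlapped between ages. In parietal epithelial cells both aged libraries, at 142 and 196 CPM, lay below the young ones, at 227 and 477 CPM, with a log2 fold change of -1.10 ± 0.30. Podocyte markers in the same sums had the same order of libraries, and their part was not tested.

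The presence of the other members was compared between endothelial cells with and without an Il6 UMI, and Socs3 was more frequent in cells with one. At 1000 UMIs a cell, the Socs3 share was 75.5% in Il6-positive against 68.1% in Il6-negative cells of young replicate 1, and 82.6% against 67.8% in young replicate 2. In the aged libraries the shares were 79.0% against 70.7% and 77.6% against 71.8%. The difference was positive in 4 of 4 libraries, with a mean of 9.07 percentage points ± 3.99 (SD, n = 4), and the young values rest on 49 and 23 Il6-positive cells. Of the 9 members compared this way, Lrg1 was the other with a positive difference in 4 of 4 libraries, at 0.015, 1.57, 4.06 and 0.908 points. The young Lrg1 shares, 2.04% of 49 and 4.35% of 23 Il6-positive cells, rest on very few cells, and their signs say little. Stat3 differed by 1.01, -11.4, 5.61 and 3.76 points, Cebpb by -2.76, -4.83, 5.37 and 2.61 points and Osmr by 1.28, -3.20, 0.183 and 2.04 points, with signs that varied between libraries. The comparison pooled the endothelial clusters, between which Il6 and Socs3 both differed. In cluster 1 aged Il6 was at 231 and 258 CPM and aged Socs3 at 2188 and 2348 CPM. In cluster 9 they were at 32.0 and 73.4 CPM and at 1069 and 1085 CPM. The part of cluster make-up in the Socs3 difference was not tested.

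Among the responders, Cebpb (chromosome 2, 167688915 to 167690418, plus strand), a transcription factor of the acute-phase response, was higher in both aged libraries in all 4 glomerular classes. Podocyte levels were 492, 570, 1352 and 1210 CPM, endothelial levels 100.5, 98.9, 247 and 172 CPM, mesangial levels 1741, 1928, 3850 and 3009 CPM, and parietal epithelial levels 599, 757, 1074 and 1044 CPM. The log2 fold changes were 1.27 ± 0.14, 1.07 ± 0.16, 0.90 ± 0.19 and 0.63 ± 0.19 in that order. Inside the endothelial clusters used for Il6, the Cebpb fold change ran from 0.35 ± 0.20 in cluster 9 to 1.37 ± 0.23 in cluster 5, and ages overlapped in cluster 6. Il6ra lies opposite Gm42809, Cebpb opposite Tmem189, Cebpd opposite Spidr and Stat3 opposite Stat5a on the other strand, and whether counting used strand is not given in the sources used here.

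Cebpd (chromosome 16, 15887286 to 15891031, plus strand), a related factor, was the member with the largest podocyte change among those with more than 100 UMIs in each library. Its podocyte levels were 630 and 734 CPM in young and 2359 and 2507 CPM in aged libraries, a log2 fold change of 1.84 ± 0.15. Thinned shares of Cebpd-positive podocytes were 25.8% and 32.9% in young and 56.9% and 57.95% in aged libraries, and unthinned ones 46.7%, 55.3%, 72.2% and 71.5%. Parietal epithelial levels were also without overlap, at 425 and 548 CPM in young and 713 and 932 CPM in aged libraries, a log2 fold change of 0.75 ± 0.21. Endothelial values of 509, 425, 479 and 618 CPM overlapped, with a log2 fold change of 0.23 ± 0.17. Mesangial cells were at 315, 329, 335 and 557 CPM, a log2 fold change of 0.47 ± 0.21.

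Lrg1 (chromosome 17, 56119678 to 56122001, minus strand), a secreted glycoprotein known to promote vessel growth, lay mainly in endothelial cells, which held 72.0%, 61.0%, 92.6% and 88.3% of its UMIs. Mesangial cells held 6, 0, 5 and 12 Lrg1 UMIs, podocytes 0, 0, 1 and 1, and parietal epithelial cells none. It was at 23.5 and 24.7 CPM in young and 90.8 and 80.2 CPM in aged endothelium, without overlap, a log2 fold change of 1.83 ± 0.15. Neutrophils held 2, 12 and 5 Lrg1 UMIs in young replicate 2 and the aged libraries, and their pooled aged level was 123 CPM (95% counting interval 71.6 to 197) against 81.7 CPM in endothelial cells before scaling.

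**Figure D4:**
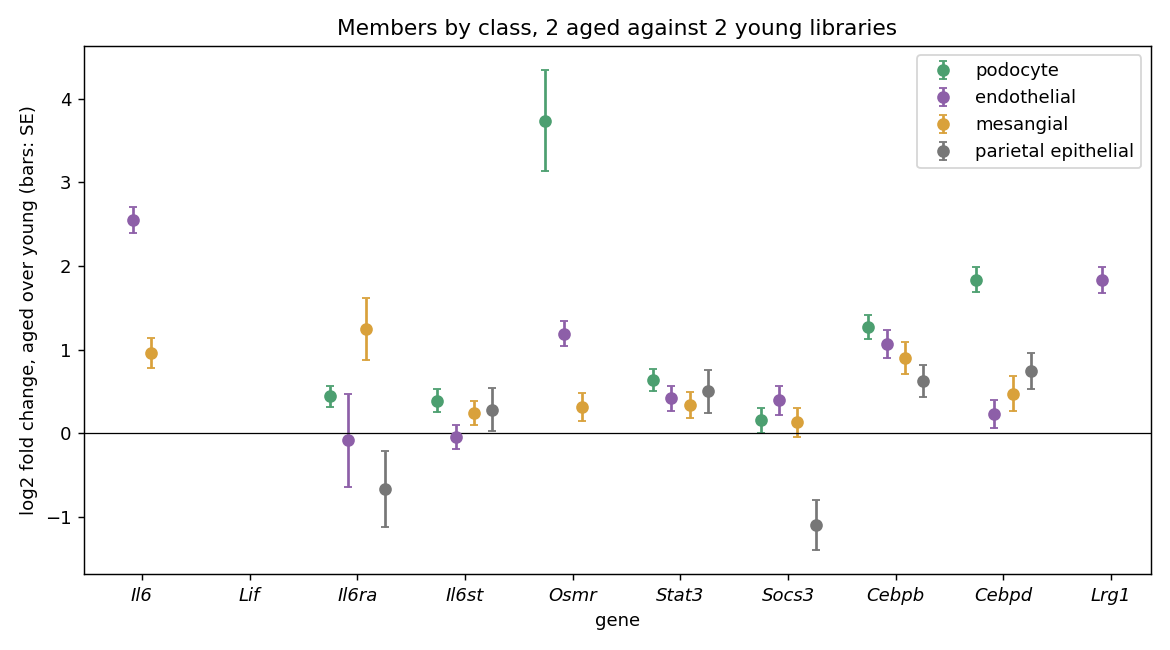
Log2 fold change of each gene, aged over young (y axis), in the 4 glomerular classes (colours), with SE as bars; genes under the count filter have no point. Endothelial Il6 (2.55), Lrg1 (1.83) and Osmr (1.19) and podocyte Cebpd (1.84) lie high, and parietal epithelial Socs3 (-1.10) lies low.

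Of the members that passed the count filter, 5 of 7 were past an adjusted p of 0.05 in podocytes, where 5.78% of all tested genes were, and 4 of 9 in endothelial cells, where 6.49% were. In mesangial cells it was 2 of 8, against 6.33% of genes, and in parietal epithelial cells 0 of 6, against 2.51%. All of those past it were higher in aged libraries, where 3.83%, 4.24%, 4.04% and 1.37% of genes were called higher in the same order of classes and 1.95%, 2.25%, 2.29% and 1.14% lower. Young and aged values were separated with the aged ones higher for 6 of 7 members in podocytes, 6 of 9 in endothelial, 7 of 8 in mesangial and 4 of 6 in parietal epithelial cells, against 24%, 24.3%, 25.9% and 22.5% of all tested genes. The aged ones were lower for 0, 0, 0 and 2 members, against 22.5%, 24.4%, 26.9% and 22.8% of genes. Nothing is read from these counts, since the members were chosen with this contrast known. The endothelial counts depended on the young libraries: without young replicate 1 edgeR called 0 genes and 0 members, although 2040 genes had an unadjusted p under 0.05, and without young replicate 2 it called 16 genes and 2 members. Without the filter on low counts it called 0 genes, with 2145 at an unadjusted p under 0.05. Mesangial calls fell to 18 genes without young replicate 1 and 22 without young replicate 2, with 0 members each, and podocyte calls to 41 genes with mixed cells kept. In parietal epithelial cells 1 or 2 members were past the threshold whichever library was left out.

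The other genes of the pathway, a list of 46, were tested by edgeR's quasi-likelihood method with Benjamini-Hochberg adjustment over all genes. The list, like the members, was drawn up with earlier results of these data known. Its counts and p-values are therefore descriptions, to be set beside the shares of all genes given above. In podocytes 5 of 32 tested rose and 1 fell. Among genes of signalling inhibitors, Socs2 (26.4 ± 1.8 to 58.9 ± 1.4 CPM, SD, n = 2, adjusted p 6.78e-06) and Cish (18.7 ± 3.4 to 44.9 ± 4.6 CPM, adjusted p 1.08e-05) rose, whereas Socs1 fell from 19.1 ± 0.47 to 6.98 ± 1.26 CPM (adjusted p 8.73e-05). The kinase gene Pim3 rose with a log2 fold change of 0.65 ± 0.13 (adjusted p 0.00144), and Timp1, which encodes an inhibitor of matrix proteases, rose from a mean of 0.836 CPM to 7.08 CPM, with a log2 fold change of 3.07 ± 0.46 (adjusted p 6.16e-05). With mixed cells kept, 1 pathway gene was called.

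In endothelial cells 8 of 35 rose and 0 fell, 6 of the 8 being targets. Pim1, a survival kinase gene that STATs induce, had means of 139 ± 9.5 CPM in young and 303 ± 25 CPM in aged libraries (SD, n = 2), 1.13 ± 0.15 apart on the log2 scale by edgeR (adjusted p 3.71e-05). The interleukin-4 receptor gene Il4ra rose by 0.92 ± 0.15 (adjusted p 0.00047), and Pim3 by 0.86 ± 0.17 (adjusted p 0.00179). The kinase gene Jak2 rose by 0.87 ± 0.17 (adjusted p 0.00218), Timp1 by 1.06 ± 0.23 (adjusted p 0.00436) and the NF-kB cofactor gene Bcl3 by 0.65 ± 0.14 (adjusted p 0.00568). No pathway gene was called by edgeR without young replicate 1, without young replicate 2 or without the count filter, with 14, 13 and 13 at an unadjusted p under 0.05, and DESeq2 called 9 over the 4 libraries.

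In mesangial cells 7 of 30 rose and 0 fell. Pim1 again was among them, at 151 ± 13 against 299 ± 4.4 CPM (adjusted p 0.0028), with the cyclin gene Ccnd1 (194 ± 22 against 402 ± 54 CPM, adjusted p 0.00331) and the interleukin-1 receptor gene Il1r1 (1.10 ± 0.22, adjusted p 0.0124). The phosphatase gene Ptpn2, the repressor gene Nfil3 and Il4ra rose by 0.78 ± 0.16, 0.95 ± 0.20 and 0.78 ± 0.21 (adjusted p 0.0123, 0.0148 and 0.0446). In the clustering that defined the classes, most young mesangial cells, 246 and 159, lay in cluster 14 and most aged ones, 638 and 507, in cluster 8, so the comparison is largely between clusters. Smooth muscle and renin markers summed to 17.6, 16.5, 167 and 162 CPM in the mesangial sums, with Cnn1 at 0 in each, and parietal epithelial markers to 345, 335, 1947 and 817 CPM, with Pax8, Krt18 and Pax2 at 0 in each. Mesangial markers summed to 11211, 11158, 10043 and 9190 CPM, and 5 of 15 dissociation genes fell, against 2.29% of all tested genes. Their part in the mesangial values, Il6 and Cebpb included, was not tested. No mesangial pathway gene was called by edgeR without young replicate 1 or without young replicate 2, with 12 and 6 at an unadjusted p under 0.05, and DESeq2 called 6 over the 4 libraries.

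In parietal epithelial cells 0 of 19 rose and 2 fell, Vegfa (log2 fold change -1.42 ± 0.32, adjusted p 0.0209) and Junb (-0.97 ± 0.23, adjusted p 0.0245). These sums also held smooth muscle and renin markers at 2190, 2182, 3773 and 3732 CPM. Of these markers, Myh11, Rergl and Cnn1 were at 0 in each library, and Ren1 in all but young replicate 2. Podocyte markers were at 1819, 3721, 822 and 1712 CPM. The part of both sets of markers in the values was not tested. With mixed cells kept edgeR called 0 genes there, 660 having an unadjusted p under 0.05. Without aged replicate 1 it called 0 pathway genes, and DESeq2 called 0, with 2 at an unadjusted p under 0.05.

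The remaining ligands and receptors were spread over several classes. Lifr, the receptor chain for Lif, was highest in endothelial cells, at 410, 502, 289 and 382 CPM, where it was not called (adjusted p 0.14 by edgeR). Il11ra1, the interleukin-11 receptor chain, was highest in mesangial cells, at 269, 211, 481 and 302 CPM, and was not called there (adjusted p 0.0755). Osm, which encodes oncostatin M, was at 412 CPM in aged neutrophils and 38.9 CPM in aged monocyte and dendritic cells, and at 0.381 CPM in aged endothelial cells. Cntf, the ciliary neurotrophic factor gene, was at 102 and 93.75 CPM in pooled young and aged parietal epithelial cells against 7.19 and 10.9 CPM in podocytes. Of the 4 receptor genes in the list, 4 were tested in endothelial cells, where Il27ra rose (adjusted p 0.0368), and 2 in each of the other classes, where none was called.

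Lists set beside these results moved with some of them. They were chosen with earlier results of these data known, so they are descriptions and no independent support. Of all tested genes, 3.83%, 4.24%, 4.04% and 1.37% were called higher in podocyte, endothelial, mesangial and parietal epithelial cells. Called lower were 1.95% in podocytes, 2.29% in mesangial and 1.14% in parietal epithelial cells. NF-kB target genes summed to 2066, 2100, 3233 and 3381 CPM in endothelial cells, with 7 of 10 rising. In podocytes they summed to 924, 1153, 2570 and 2546 CPM, with 3 of 6 tested rising. Mesangial sums were 4287, 4834, 6348 and 5907 CPM, with 4 of 9 tested rising. Parietal epithelial sums of 1704, 2121, 1920 and 2567 CPM overlapped between ages, with 1 of 7 tested rising. The NF-kB list includes Sele and Selp, which with Il6 and Lrg1 lead endothelial cluster 3 of the main clustering. That cluster held 95, 99, 1095 and 746 cells. Genes known to respond to tissue dissociation summed to 26208, 26072, 26519 and 31779 CPM in endothelial cells, where 2 of 15 rose. In podocytes they summed to 41299, 42821, 39732 and 45922 CPM, with 4 of 15 rising and 1 falling. Mesangial sums were 41790, 46489, 31338 and 42836 CPM, with 5 of 15 falling. Parietal epithelial sums were 23600.1, 26609, 11437 and 20052 CPM, with 6 of 15 falling. Socs3 was lower in aged parietal epithelial cells, overlapped between ages in podocytes and mesangial cells, and was higher in aged endothelial cells. Glucocorticoid-responsive genes summed to 1151, 1287, 1538 and 1321 CPM in endothelial cells, where 2 of 6 rose. They summed to 197, 183, 318 and 238 CPM in podocytes, where 3 of 6 rose and 1 fell, and to 534, 582, 927 and 715 CPM in mesangial cells, where 3 of 6 rose. Parietal epithelial sums were 324, 415, 787 and 716 CPM, with 1 of 4 tested rising. Cebpd was higher in both aged libraries in podocytes, mesangial and parietal epithelial cells and overlapped in endothelial cells. The part of each list in the members' values was not tested.

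Over the 16 sums of 4 classes and 4 libraries, the genes most like Il6 were Gbp5 (Pearson r 0.975), Tbkbp1 (0.957), Serpina3g (0.957), Tgfb1 (0.956) and Arpc1b (0.954). Those most like Socs3 were Luzp1 (0.910), Gnas (0.908), Cyfip1 (0.902), Pim3 (0.900) and Gadd45g (0.900). These describe 16 points that share libraries and depth.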

How the data were processed

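Per the labels, single glomerular cells were profiled with a droplet kit for transcript 3' ends. The deposited matrices hold raw UMI counts per gene and barcode, made with Cell Ranger on GRCm38; the version is 3.1.0 per the labels' protocols and 6.0.1 per the file headers and the submitters' processing notes. Barcodes with at least 500 genes and at most 20% mitochondrial UMIs were kept. Scrublet's automatic threshold marked 134 barcodes (0.449%), so the highest scores were removed at 0.8% per 1000 barcodes, 1876 in all, leaving 28000 cells. These were clustered with scanpy 1.11.5 and leidenalg 0.10.2 into 29 clusters, of which 24 were named from markers at a level of 0.35 of the best cluster. Clusters and cells with an unrelated class at 0.25 were left out as mixed. The single-cell rule (at least 2 markers of the other class), the related classes and the levels were set after clusters had been seen. The rule for tubule cells was relaxed after the tests had been run and Lif seen there; the counts of cells in the glomerular classes did not change.

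UMIs were summed per class and library (at least 20 cells in each) and tested with edgeR 4.0.16 (TMM, filterByExpr, quasi-likelihood F test, age as the only term) in R 4.3.3; genes with an adjusted p under 0.05 were called. DESeq2 1.42.0 was an alternative. CPM values are after TMM unless said otherwise, and SE is the log2 fold change over the square root of F. Intervals cover counting error at 95%. The edgeR step was tested on simulated data. Gene positions came from GENCODE M21. Members and lists were chosen with earlier results of these data known. All members are named; of the pathway list, up to 6 called genes per class with the smallest p, separated groups, and a class mean of at least 10% of any other class; and the 5 genes most like Il6 and Socs3. Osm, Cntf, Lifr, Il11ra1 and Il27ra were named after their values were seen. Same-numbered libraries deviated together only weakly (correlations 0.0492, 0.186, 0.102 and 0.0433 for podocyte, endothelial, mesangial and parietal epithelial cells), and with 2 pairs the numbers were not taken as pairing.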

Additional observations from a re-analysis of the deposited data

Results flagged for a closer look

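Il6ra was higher in both aged than in both young libraries in podocytes and in mesangial cells and lower in both in parietal epithelial cells, where its log2 fold change was -0.67. Socs3 was higher in both aged libraries in endothelial cells and lower in both in parietal epithelial cells, with a log2 fold change of -1.10 there. The differences between classes were not tested. Parietal epithelial Il6ra rests on 23 young and 23 aged UMIs. Podocyte markers were also lower in both aged parietal epithelial sums, and their part in both genes was not tested. Lif in the tubule class, which entered no comparison, stood at 102.0 CPM in the pooled aged libraries and 22.7 CPM in the young ones. The ratio was 4.50 with a 95% counting interval of 1.71 to 16.8, which leaves out the spread between libraries. Young replicates 1 and 2 stood at 63.2 and 0 CPM, and aged replicates 1 and 2 at 63.9 and 227 CPM. All 4 young UMIs lay in 1 cell. The aged values rest on 15 cells under a rule relaxed after Lif had been seen.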

How the results depend on the processing

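The sign of the endothelial Il6 fold change held in each alternative, from 2.40 to 2.69 with 1 library left out and, within clusters 0, 1, 4, 6 and 12, at 2.03, 1.98, 4.60, 1.30 and 3.13. The Il6-positive share differed by 4.77 points at 500 UMIs and 14.8 unthinned, and by 6.62 to 8.48 with 1 library left out; the Socs3 difference then ran from 7.15 to 10.2 points. Counts of calls moved far more, and the cause was not tested. With 1 library left out, podocyte calls ran from 306 to 966 genes, 4 to 8 pathway genes and 3 to 6 members; endothelial calls from 0 to 745, 0 to 10 and 0 to 4; mesangial calls from 18 to 1643, 0 to 16 and 0 to 4; parietal epithelial calls from 134 to 197, 0 to 3 and 1 to 2. DESeq2 called 271 podocyte, 504 endothelial, 408 mesangial and 37 parietal epithelial genes, with 0 parietal epithelial pathway genes (2 at an unadjusted p under 0.05). Without the count filter, 0 endothelial genes, pathway genes and members were called, 1254, 11 and 4 in mesangial cells, and 218 genes and 3 members in parietal epithelial cells. With mixed cells kept, podocyte calls were 41 genes, 1 pathway gene and 2 members, mesangial calls 1069 genes, and parietal epithelial calls 0 genes and 0 pathway genes (660 and 6 at an unadjusted p under 0.05). Parietal epithelial calls were 233 genes and 2 members with doublets kept, 260, 4 pathway genes and 2 members at 1000 UMIs per cell, 232 and 2 at resolution 2, and 220 and 2 when clustered without the lists. With the replicate number as a block (replicate block), calls were 899, 1276, 1585 and 254 genes in podocyte, endothelial, mesangial and parietal epithelial cells, 14 and 12 pathway genes in endothelial and mesangial cells, and 4 and 3 members in mesangial and parietal epithelial cells. The parietal epithelial class was not named at 10% mitochondrial UMIs, so that alternative was not run for it. Lif in aged tubule cells fell to 8.70 CPM under the first rule for mixed cells, an alternative chosen after seeing the data.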
